A study of Mus musculus with 2 samples.

Results

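Single LβT2 cells were divided by their count of Fn1 transcripts. A cell with 2 or more Fn1 unique molecular identifiers (UMIs, each of which tags 1 captured transcript) was placed in the Fn1-high class, and a cell with 0 was placed in the Fn1-negative class. The Fn1-high class held 291 of 3881 cells, and the Fn1-negative class held 3034. The other 556 cells had 1 Fn1 UMI and are described as an in-between class. The classes were chosen by Fn1 itself, so Fn1 values are given here only as a description.

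LβT2 is an immortalised mouse line derived from pituitary gonadotropes and labelled anterior pituitary. Cells at passage 15 were treated for 40 min with 2 nM GnRH, the hypothalamic peptide that drives gonadotropin synthesis and release, or with vehicle. Each treatment gave 1 droplet-based 3′ single-cell library, with 1992 vehicle and 1889 GnRH cells. Since a treatment is represented by a single library, cells cannot stand in for replicates, and differences are given with neither tests nor p-values. Intervals are 95% intervals and cover counting error only. The class contrast could be made separately in each library, and these 2 libraries are its only repeats.

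Fibronectin, the product of Fn1, is a large secreted glycoprotein that assembles into fibrils in the extracellular matrix and is bound by integrins at the cell surface. Integrins connect it through adaptors such as tensin to the actin cytoskeleton. It is best known from fibroblasts and other stromal cells, and cultured lines of many origins also make it. Gonadotropes are secretory cells whose GnRH receptor signals through G proteins, calcium and MAP kinases to a set of early genes. Btg2, an anti-proliferative co-factor of mRNA deadenylation, belongs to such early genes. Coq10b encodes a mitochondrial protein that binds coenzyme Q.

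The promoters of these 2 GnRH-responsive genes are shown because the response inside each class was measured on them. The sequences are from RefSeq on GRCm38.p6 and run 5′ to 3′ on the strand of the gene, from 250 bases before to 50 bases after the annotated start. Btg2 lies on the minus strand, and its window is chr1:134079106-134079405. Coq10b lies on the plus strand, and its window is chr1:55052520-55052819. Capitals mark every match to the cAMP response element core TGACG, or its reverse complement CGTCA, a motif known to be bound by the CREB and ATF factors.
Btg2: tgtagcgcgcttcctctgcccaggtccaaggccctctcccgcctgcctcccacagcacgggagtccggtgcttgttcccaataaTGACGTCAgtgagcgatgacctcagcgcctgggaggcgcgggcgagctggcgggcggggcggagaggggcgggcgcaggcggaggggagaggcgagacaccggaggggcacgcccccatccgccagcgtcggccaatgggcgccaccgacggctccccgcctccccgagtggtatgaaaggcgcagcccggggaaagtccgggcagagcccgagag
Coq10b: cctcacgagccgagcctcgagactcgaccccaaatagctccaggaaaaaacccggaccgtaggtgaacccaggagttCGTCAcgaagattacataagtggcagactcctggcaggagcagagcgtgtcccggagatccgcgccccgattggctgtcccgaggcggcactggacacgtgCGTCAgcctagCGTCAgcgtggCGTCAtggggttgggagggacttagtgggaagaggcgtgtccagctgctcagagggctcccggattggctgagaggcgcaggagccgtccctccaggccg
The Btg2 window held the full palindrome TGACGTCA once, beginning 166 bases before the start, and its 2 core matches lie inside that palindrome. The Coq10b window held no full palindrome and 4 core matches. Searched on both strands, the full palindrome was present in 588 of 32851 RefSeq promoters of this length (1.79%) and a core match in 6837 (20.8%). A match is a description of the letters and not of factor binding.

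The table analysed here held 1068 genes, of which 1062 could be placed and all of these lay on chromosome 1. Per-cell UMI totals below are sums over the 1067 genes other than Fn1 and are not the whole depth of a cell. The label was checked against marker genes that fall in this table. The gonadotrope-associated genes Scg2, Inha and Inhbb, which encode secretogranin II and subunits of inhibin and activin, were all detected in both classes. The usual gonadotrope markers on other chromosomes were not analysed here. Among 8 fibroblast markers, Col3a1, Col5a2, Fmod, Prelp and Twist2 had 0 UMIs in all cells, Col6a3 had 1 UMI with vehicle and 0 with GnRH, and Sulf1 had 2 in each. The remaining fibroblast marker, the protease inhibitor Serpine2, was abundant and was lower in Fn1-high cells, at 2.77 against 3.69 UMIs per cell with vehicle and 2.50 against 3.15 with GnRH. Of 9 immune markers in the table, Cd28, Ctla4, Icos, Il1rl1 and Il18r1 had 0 UMIs. The summed level of the immune markers was 0.00769 UMI per cell in Fn1-high and 0.0481 in Fn1-negative vehicle cells, and 0.0130 and 0.0423 in GnRH cells, nearly all of it Ikzf2. The fibroblast collagen genes in this table, Col3a1, Col5a2 and Col6a3, were thus at or near 0, and those on other chromosomes were not analysed here.

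Fn1 (ENSMUSG00000026193, chr1:71585520-71653200 on the minus strand, GRCm38) was a moderately expressed gene in both libraries. With vehicle 640 Fn1 UMIs were counted, and with GnRH 712. As CPM of the analysed UMIs this was 568 (525 to 614) with vehicle and 636 (591 to 685) with GnRH, a log2 ratio of 0.16 (0.01 to 0.32). The levels of the 2 libraries were thus close, with a counting interval that barely left 0 and no replicate check. Fn1-high cells made up 6.78% of the vehicle library (5.71% to 7.97%) and 8.26% of the GnRH library (7.06% to 9.59%), and these intervals overlap. They held 57.3% and 60.3% of all Fn1 UMIs.

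Fn1 counts were spread more widely between cells than counting at 1 common rate would give. In the vehicle library 135 cells had 2 or more UMIs where 91.3 were expected if every cell drew Fn1 at the same rate from its own UMI total (a Poisson expectation), and in the GnRH library 156 had them where 112 were expected. Just inside the threshold the counts were close to the expectation. Exactly 2 UMIs were counted in 85 vehicle cells (79.3 expected) and 89 GnRH cells (95.5 expected). Just outside it, 1 UMI was counted in 273 vehicle cells (444 expected) and 283 GnRH cells (469 expected). At 3 or more UMIs the counts were above the expectation, with 50 vehicle cells against 12.0 expected and 67 GnRH cells against 16.7 expected. Cells with 0 were also above it, at 1584 against 1457 and 1450 against 1308. The highest counts in single cells were 11 and 10 UMIs. The squared coefficient of variation was 1.92 times the counting value with vehicle and 1.93 times with GnRH. Most of the class lay at 2 UMIs. These counts describe the spread of the gene that set the classes and do not show which single cells differ in Fn1 level.

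**Figure D1:**
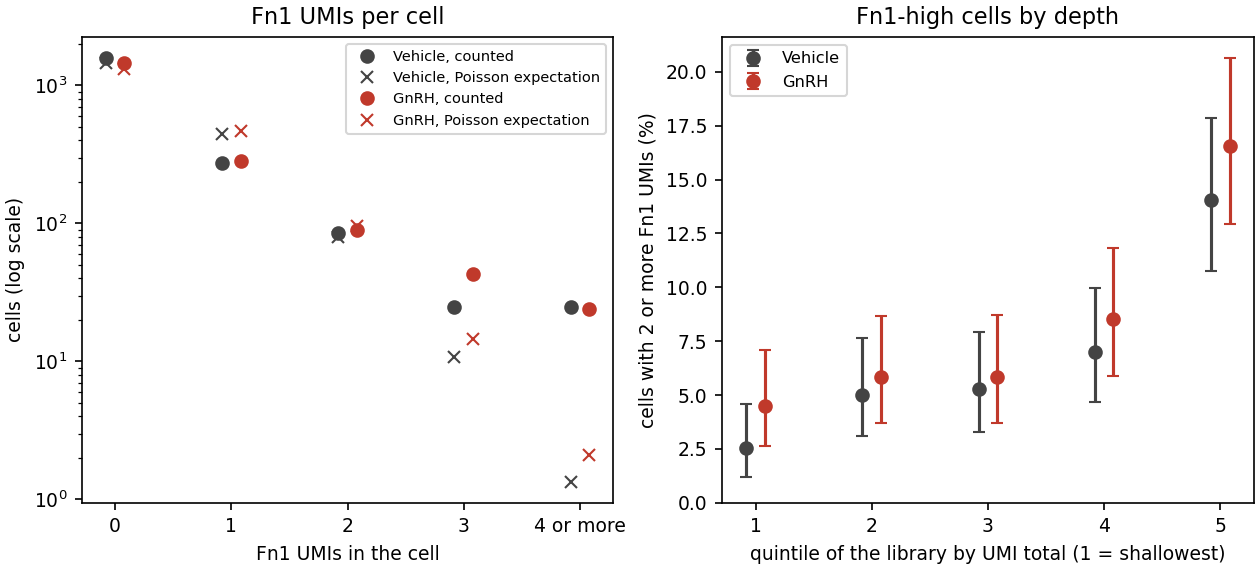
Left, number of cells (log scale) at each Fn1 UMI count in the vehicle and GnRH libraries, with crosses for the Poisson expectation at each cell's depth. Right, percent of cells with 2 or more Fn1 UMIs in each quintile of a library by UMI total, with exact 95% binomial intervals. Counted cells exceed the expectation at 0 and at 3 or more UMIs, and the share of Fn1-high cells is largest in the deepest quintile.

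Fn1-high cells were deeper than Fn1-negative cells. Their median was 670 UMIs (interquartile range 502 to 843) against 529.5 (412.75 to 671) with vehicle, and 680 (522.25 to 881.25) against 540.5 (438.25 to 668.75) with GnRH. In-between cells had medians of 579 and 604. The number of genes detected followed the same order, with medians of 179 against 157 genes with vehicle and 179 against 155 with GnRH. By quintiles of UMI total, the share of Fn1-high cells went from 2.53% in the shallowest to 14.0% in the deepest quintile with vehicle, and from 4.50% to 16.5% with GnRH. The CPM of Fn1 moved far less across these quintiles, between 461 and 668 with vehicle and between 578 and 702 with GnRH. It was highest in the deepest quintile of both libraries. The part of depth and of doublets in the share of Fn1-high cells was not tested. After each cell was thinned to 300 UMIs with Fn1 included, the share with 2 or more Fn1 UMIs was 2.54% with vehicle and 3.76% with GnRH.

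All class contrasts below are therefore made at equal depth, each cell being thinned at random to 300 UMIs of genes other than Fn1. This kept 130 of 135 Fn1-high and 1393 of 1584 Fn1-negative vehicle cells, and 154 of 156 and 1349 of 1450 GnRH cells. Levels are mean UMIs per thinned cell, and ratios are Fn1-high over Fn1-negative. Of 616 other genes detected, 253 had an expected count of at least 20 in the Fn1-high cells of each library. A gene was called when it differed at least 1.5-fold in the same direction in both libraries. There were 3 genes higher (1.19% of 253) and 3 lower (1.19%). The number of higher genes was 1 with a second draw, with the mean proportion of UMIs per cell, with no thinning or with depth-matched weighting, and 0 at 200 UMIs, so this background share holds for the draw used here. Where it was 1, the gene was Eya1 with the second draw, which kept none of the 3 higher genes, and Akr1cl with the others. Most genes therefore differed little between the classes, and the median log2 ratio was -0.003 with vehicle (interquartile range -0.19 to 0.18) and -0.02 with GnRH (-0.16 to 0.14). Across the 253 genes the log2 ratios of the 2 libraries had a Pearson correlation of 0.49 and a Spearman correlation of 0.39, and 155 genes (61.3%) had the same sign. For the 66 genes with at least 100 UMIs in the Fn1-high cells of each library the correlations were 0.71 and 0.60. These correlations are across genes, which are not independent, and both libraries come from the same line.

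**Figure D2:**
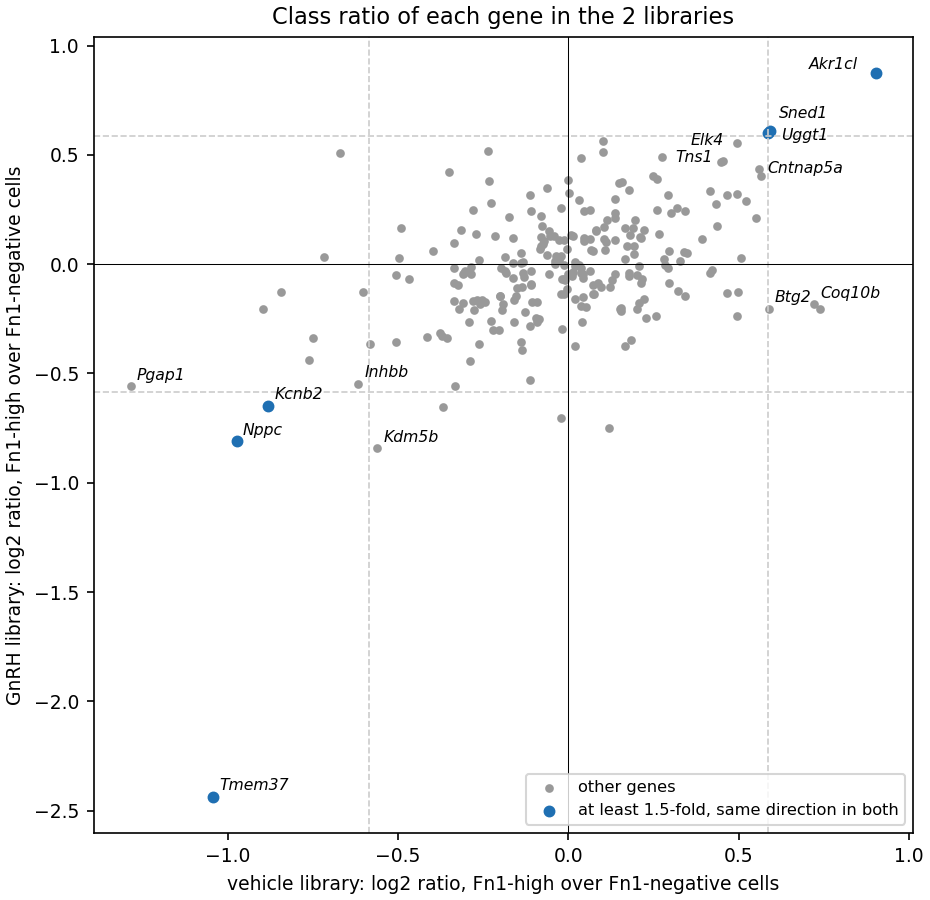
Log2 ratio of Fn1-high over Fn1-negative cells for 253 genes, vehicle library on the x axis and GnRH library on the y axis, from cells thinned to 300 UMIs. Dashed lines mark 1.5-fold, and blue points are the 6 called genes, with Akr1cl at the upper right and Nppc, Kcnb2 and Tmem37 at the lower left, while Btg2 and Coq10b lie right of 0 and below it.

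Akr1cl (ENSMUSG00000025955, chr1:65012689-65032759, minus strand), a member of the aldo-keto reductase family, had the largest ratio among the genes higher in both libraries. In the vehicle library it had 48 UMIs in Fn1-high and 275 in Fn1-negative cells, or 0.369 against 0.197 UMI per cell, a log2 ratio of 0.90 (0.43 to 1.35). In the GnRH library it had 45 and 215 UMIs, or 0.292 against 0.159, a log2 ratio of 0.87 (0.38 to 1.34). At least 1 Akr1cl UMI was present in 20.8% of Fn1-high against 11.3% of Fn1-negative vehicle cells, and in 16.9% against 10.4% of GnRH cells. A single cell held 17.8% of the Akr1cl UMIs of Fn1-high GnRH cells. A processed pseudogene, Gm8550, lies across it on the opposite strand, and the use of strand in counting is not given in the sources used here. With the mean proportion of UMIs per cell in place of a random draw, the log2 ratios were 0.65 and 0.91. Of 11 alternatives that counted UMIs or chose cells differently, 10 could give a ratio for Akr1cl, and it was called in 7 of them. The vehicle ratio was 0.58 with a second draw and the GnRH ratio 0.51 with the class cut at 3 Fn1 UMIs, both under 1.5-fold, and at 200 UMIs the gene was past 1.5-fold but under the count filter.

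Sned1 (chr1:93235841-93301065), which encodes a secreted matrix glycoprotein, and Uggt1 (chr1:36140027-36244720), the glucosyltransferase that senses misfolded glycoproteins in the endoplasmic reticulum, lay just past 1.5-fold. Sned1 was at 0.654 against 0.434 UMI per cell with vehicle, a log2 ratio of 0.59 (0.25 to 0.92), and at 0.591 against 0.387 with GnRH, 0.61 (0.27 to 0.93). Uggt1 was at 0.415 against 0.276 with vehicle, 0.59 (0.15 to 1.00), and at 0.396 against 0.262 with GnRH, 0.60 (0.18 to 0.99). Both calls rested on the draw. The mean proportion gave 0.35 and 0.43 for Sned1 and 0.29 and 0.54 for Uggt1, all under 1.5-fold. Sned1 overlaps Mterf4 on the opposite strand.

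The other genes of the 10 with the largest ratios in this direction were under 1.5-fold in at least 1 library. Cntnap5a, a neurexin-family membrane protein, was the only abundant one. It was at 7.67 against 5.20 UMIs per cell with vehicle, a log2 ratio of 0.56 (0.46 to 0.66), and at 6.14 against 4.55 with GnRH, 0.43 (0.33 to 0.53). Its ratio is therefore measured more tightly than that of any called gene. Under the alternatives it lay between 0.39 and 0.68 with vehicle and between 0.32 and 0.52 with GnRH. Elk4, an ETS factor that partners with serum response factor, had log2 ratios of 0.49 (0.02 to 0.94) and 0.56 (0.09 to 0.99). Mapkapk2, a kinase downstream of p38, had 0.45 (0.08 to 0.81) and 0.47 (0.11 to 0.82), but -0.14 with vehicle at 200 UMIs. Tns1, the tensin that links integrins to actin, had 0.45 (0.18 to 0.71) and 0.47 (0.20 to 0.73), and Mgat5, which branches N-glycans on surface proteins, had 0.42 (0.13 to 0.69) and 0.33 (0.05 to 0.61). The transcriptional co-activator Eya1 had 0.57 (0.20 to 0.91) and 0.40 (0.03 to 0.76), and the ETS factor Fev had 0.49 (0.07 to 0.90) and 0.32 (-0.12 to 0.74). Under the alternatives the vehicle ratio ranged from 0.13 to 0.73 for Tns1 and from 0.09 to 0.61 for Fev. The GnRH ratio of Fev ranged from 0.08 to 0.60.

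Among genes lower in Fn1-high cells, Nppc (ENSMUSG00000026241, chr1:86666291-86670571, minus strand) was measured best of the called ones. It encodes the precursor of C-type natriuretic peptide, a hormone acting through a guanylyl cyclase receptor. It had 62 UMIs in Fn1-high and 1304 in Fn1-negative vehicle cells, or 0.477 against 0.936 UMI per cell, a log2 ratio of -0.97 (-1.36 to -0.61). In the GnRH library it had 81 and 1243 UMIs, or 0.526 against 0.921, a log2 ratio of -0.81 (-1.15 to -0.48). At least 1 Nppc UMI was present in 32.3% of Fn1-high against 53.5% of Fn1-negative vehicle cells, and in 41.6% against 52.1% of GnRH cells. It was called in all 11 of these alternatives, and its mean-proportion ratios were -0.91 and -0.76.

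Tmem37, a voltage-gated calcium channel gamma-like protein, had 11 against 243 UMIs with vehicle, a log2 ratio of -1.04 (-2.07 to -0.18), and 5 against 237 with GnRH, -2.44 (-4.07 to -1.19). Kcnb2, a delayed-rectifier potassium channel subunit, had 15 against 296 UMIs, -0.88 (-1.74 to -0.14), and 21 against 288, -0.65 (-1.36 to -0.01). These counts are small and their intervals wide. Tmem37 was past 1.5-fold in both libraries in 10 of the 11 alternatives, 4 of them under the count filter, and the exception was the class cut at 1 Fn1 UMI, with -0.56 in vehicle cells. The mean proportion gave -1.22 and -1.90 for Tmem37 and left Kcnb2 at -0.89 and -0.50, under it in the GnRH library.

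The remaining genes of the lowest 10 included Inhbb, the activin and inhibin beta B subunit. It was at 0.731 against 1.12 UMIs per cell with vehicle, a log2 ratio of -0.62 (-0.93 to -0.32), and at 0.636 against 0.930 with GnRH, -0.55 (-0.86 to -0.25). Kdm5b, a histone H3 lysine demethylase, had log2 ratios of -0.56 (-0.98 to -0.17) and -0.84 (-1.27 to -0.44), and Khdrbs2, an RNA-binding protein of the STAR family, had -0.58 (-0.93 to -0.25) and -0.37 (-0.67 to -0.08). Pgap1, which remodels GPI anchors, had -1.28 and -0.56 on 11 and 18 UMIs in Fn1-high cells, and its vehicle ratio was only -0.41 by the mean proportion. Acsl3, Ankzf1 and Acadl, with roles in fatty acid activation, ribosome quality control and fatty acid oxidation, ranged from -0.76 to -0.36, and for each of them at least 1 of its 2 intervals included 0. Acadl turned direction by the mean proportion, at 0.01 and 0.28, and Ankzf1 turned to 0.31 with GnRH at 200 UMIs.

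**Figure D3:**
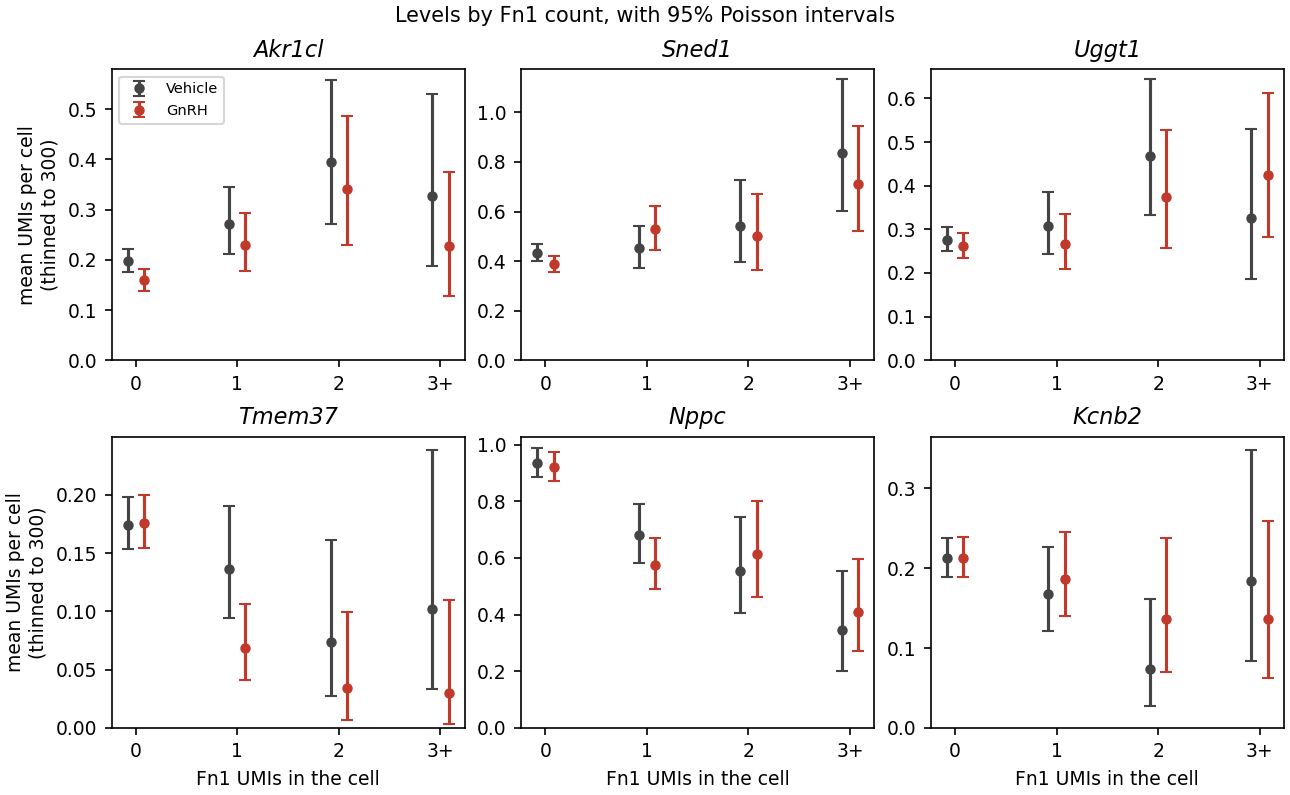
Mean UMIs per thinned cell of the 6 called genes at 0, 1, 2 and 3 or more Fn1 UMIs, vehicle and GnRH libraries, with 95% Poisson intervals and y axes from 0. The Nppc mean goes from 0.936 at 0 Fn1 UMIs to 0.347 at 3 or more with vehicle, and from 0.921 to 0.409 with GnRH.

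The in-between cells were used by neither class. They are set here against the same Fn1-negative cells, and the cells at 2 and at 3 or more UMIs are the Fn1-high class itself. The levels below therefore describe these genes by Fn1 count and are not an independent repeat. Nppc averaged 0.680 UMI per cell (0.582 to 0.790) at 1 Fn1 UMI with vehicle and 0.576 (0.490 to 0.672) with GnRH, below the Fn1-negative cells in both. At 3 or more Fn1 UMIs it averaged 0.347 (0.202 to 0.555) and 0.409 (0.270 to 0.595). Cntnap5a went from 5.20 at 0 to 6.38 at 1, 7.47 at 2 and 8 at 3 or more Fn1 UMIs with vehicle. With GnRH it went from 4.55 to 6.06, 6.30 and 5.94, so that the classes from 1 UMI upward did not differ beyond their counting intervals there. Akr1cl averaged 0.272 (0.211 to 0.345) and 0.230 (0.177 to 0.294) at 1 UMI, above Fn1-negative cells, but was not higher at 3 or more UMIs (0.327 and 0.227) than at 2 (0.395 and 0.341). Tmem37 averaged 0.136 at 1 UMI with vehicle and 0.0683 with GnRH, against 0.174 and 0.176 at 0. Sned1 was at 0.452 at 1 UMI with vehicle, near the 0.434 at 0, and at 0.529 with GnRH, against 0.387 at 0. Its highest means were at 3 or more UMIs, 0.837 and 0.712. Uggt1 with vehicle and Kcnb2 with vehicle did not change in 1 direction across the classes. Uggt1 was at 0.276, 0.308, 0.469 and 0.327 at 0, 1, 2 and 3 or more UMIs with vehicle, and at 0.262, 0.266, 0.375 and 0.424 with GnRH. Kcnb2 was at 0.212, 0.168, 0.0741 and 0.184 with vehicle, and at 0.213, 0.187, 0.136 and 0.136 with GnRH.

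Grouped genes were compared by counts and medians. Of 21 matrix genes, 17 were in the table, 11 were detected and 4 passed the count filter. Col3a1, Col4a3, Col5a2, Col9a1, Fmod and Prelp were at 0 UMIs. Of the 4, Sned1 was called higher and none lower, where 1.19% of all 253 genes were called in each direction, and the medians were -0.17 with vehicle and -0.19 with GnRH, beside -0.003 and -0.02 over all genes. Igfbp5, an IGF-binding protein found in matrix, was at 3.25 against 4.16 UMIs per cell with vehicle and 3.13 against 3.95 with GnRH, log2 ratios of -0.36 (-0.50 to -0.21) and -0.34 (-0.47 to -0.20). Serpine2 had -0.41 (-0.57 to -0.26) and -0.33 (-0.49 to -0.18), and Igfbp2 had 0.01 and -0.04. The measured matrix genes thus had ratios in both directions.

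Of 25 adhesion and actin genes, 20 were in the table and 6 passed, with none called and medians of 0.03 and 0.12. At a background of 1.19% in each direction, no call is what a group of this size would mostly give, here and in the groups below. Tns1 and Mgat5 had the highest ratios of the 6, while the Arp2/3 subunit genes Arpc2 and Actr3 were lower or level, at -0.29 and -0.04, and at -0.13 and -0.04. Of 11 gonadotrope and secretory genes, 8 passed. Akr1cl was called higher and none lower, against the same 1.19% each way over all genes, with medians of -0.14 and 0.15 beside -0.003 and -0.02. Scg2, which encodes a granin of secretory granules, was at 18.4 against 21.2 UMIs per cell with vehicle, a log2 ratio of -0.20 (-0.26 to -0.14), and at 16.6 against 20.5 with GnRH, -0.30 (-0.36 to -0.24). Inha, the inhibin alpha subunit, differed in direction between the libraries, at -0.23 (-0.64 to 0.15) and 0.38 (0.07 to 0.67). Summed over Inha, Inhbb and Scg2, Fn1-high cells had 19.6 UMIs per cell against 22.9 with vehicle and 17.9 against 21.9 with GnRH. Nearly all of each sum was Scg2.

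None of the 9 measured genes of replication and mitosis was called (background 1.19% in each direction), with medians of -0.22 and -0.07. The replicative helicase genes Mcm3 and Mcm6 had -0.25 and -0.26 with vehicle and -0.16 and -0.18 with GnRH. None of the 12 mitochondrial genes was called, with medians of -0.03 and -0.05, and Cox5b, a cytochrome oxidase subunit, had -0.19 and -0.18. None of the 10 ribosome and translation genes was called either, with medians of -0.07 and 0.10. Their summed level was higher in Fn1-high cells of both libraries, at 69.6 against 63.5 UMIs per cell with vehicle, a log2 ratio of 0.13 (0.10 to 0.16), and at 71.4 against 64.4 with GnRH, 0.15 (0.12 to 0.18), a sign that the vehicle median did not share. Most of that difference was 1 gene, Rpl37a, with 5.72 of 6.05 UMIs per cell with vehicle and 5.70 of 6.94 with GnRH. Without it the sums were 35.1 against 34.8 and 35.5 against 34.3, log2 ratios of 0.01 and 0.05. Rpl37a, a large-subunit ribosomal protein gene and an abundant one, was at 34.5 against 28.8 UMIs per cell with vehicle and at 35.9 against 30.2 with GnRH, log2 ratios of 0.26 (0.22 to 0.31) and 0.25 (0.21 to 0.29). It went from 28.8 at 0 to 31.5 at 1, 34.2 at 2 and 34.8 at 3 or more Fn1 UMIs with vehicle, and from 30.2 to 33.2, 35.9 and 35.9 with GnRH. The other 2 ribosomal protein genes, Rpl7 and Rpl31, were nearly level, at 0.04 and -0.02 and at 0.06 and 0.11. Eef1b2, a translation elongation factor subunit, had 0.14 (-0.003 to 0.27) and 0.24 (0.11 to 0.36). Nucleolin, Ncl, was lower, at -0.27 (-0.42 to -0.12) and -0.16 (-0.30 to -0.03). Because every cell was set to the same total, a gain of several UMIs in Rpl37a takes the same number from the sum of all other genes.

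The genes around Fn1 were examined within 1 Mb on each side. Of 19 such genes, 12 were detected and 2 passed the filter. Atic, an enzyme of purine synthesis, had log2 ratios of 0.18 and 0.14, and Bard1, the partner of Brca1, had -0.50 and -0.05. Apol7d overlaps the 5′ end of Fn1 on the opposite strand and had 12 UMIs in the thinned cells of the 2 classes, too few to pass. On these few UMIs its log2 ratios were 1.84 with vehicle and 3.55 with GnRH, with an empty count set to 3. The 2 genes share only a short stretch at that end, and reads from this stretch cannot be told apart if strand was not used.

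The GnRH response of Btg2 (ENSMUSG00000020423, chr1:134075170-134079120) was large in both classes. In vehicle cells Btg2 was at 0.369 UMI per cell in the Fn1-high class (48 UMIs), 0.352 at 1 Fn1 UMI and 0.246 in the Fn1-negative class (342 UMIs). In GnRH cells it was at 8.23 in the Fn1-high class (1268 UMIs), 7.54 at 1 Fn1 UMI and 9.48 in the Fn1-negative class (12792 UMIs). Fn1-high cells as a class therefore had the higher mean in the vehicle library and the lower mean in the GnRH library. The 2 libraries hold different cells, each classed by its own Fn1 count. GnRH cells with exactly 2 Fn1 UMIs averaged 7.43 Btg2 UMIs and those with 3 or more averaged 9.30, and the difference between these 88 and 66 cells was not tested. With the class cut at 3 Fn1 UMIs, the log2 class ratio of Btg2 was -0.03 with GnRH and 0.58 with vehicle. At least 1 Btg2 UMI was present in 27.7% of Fn1-high (20.2% to 36.2%) and 18.6% of Fn1-negative vehicle cells (16.6% to 20.7%), and in 97.4% and 95.3% of GnRH cells. Without thinning the shares were 40.7% and 30.1% with vehicle and 100% and 97.0% with GnRH. Median counts in GnRH cells were 6 (interquartile range 3 to 12) in the Fn1-high and 8 (3 to 14) in the Fn1-negative class. The spread within each class was thus wider than the gap between them.

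**Figure D4:**
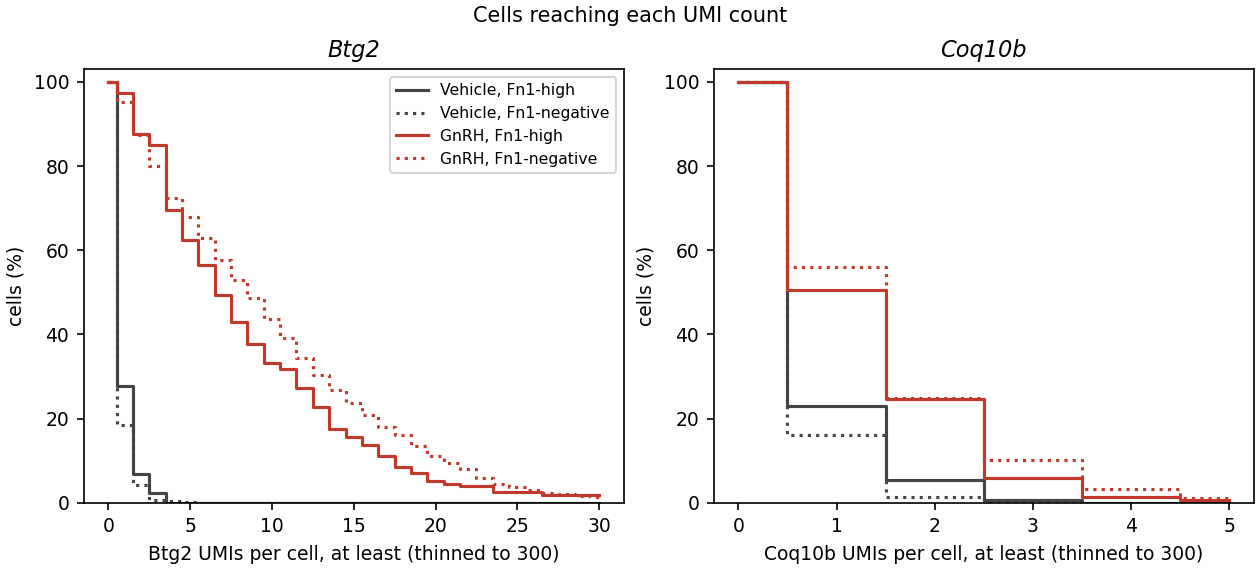
Percent of cells (y axis) with at least the UMI count on the x axis, for Btg2 and Coq10b in cells thinned to 300 UMIs, by class and library. In the GnRH library the Fn1-high line for Btg2 runs below the Fn1-negative line over most of the range, with medians of 6 and 8, and in the vehicle library 27.7% against 18.6% of cells have a UMI.

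The log2 ratio of GnRH over vehicle for Btg2 was 4.48 (4.06 to 4.93) in Fn1-high cells, which is 22.3-fold, and 5.27 (5.12 to 5.43) in Fn1-negative cells, which is 38.6-fold. The difference between classes was -0.79 (-1.24 to -0.35). Counts of Btg2 in GnRH cells varied 5.99 times as much as Poisson counts in the Fn1-high class and 5.81 times in the Fn1-negative class, so these intervals are too narrow. In absolute terms 7.86 UMIs per cell were added in Fn1-high and 9.24 in Fn1-negative cells. The size of the difference depended on the draw. It was -0.60 with a second draw, -0.51 with the mean proportion per cell, -0.46 with Fn1-negative cells weighted to the depth of Fn1-high cells and -0.36 at 400 UMIs. Most of the movement was in the vehicle cells, where the class ratio was 0.59 in the first draw and 0.31 by the mean proportion, while in GnRH cells it was -0.20 by both.

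Coq10b (chr1:55052770-55072702) had the same order of means. In vehicle cells it was at 0.292 UMI per cell in the Fn1-high class (38 UMIs) and 0.177 in the Fn1-negative class (247 UMIs). In GnRH cells it was at 0.844 (130 UMIs) and 0.958 (1292 UMIs), with at least 1 UMI in 50.6% and 56.0% of cells. The log2 ratio of GnRH over vehicle was 1.53 (1.00 to 2.09) in Fn1-high and 2.43 (2.24 to 2.64) in Fn1-negative cells, and the difference was -0.90 (-1.46 to -0.35). The class ratio in vehicle cells moved most, from 0.72 in the draw used to 0.37 with a second draw, 0.21 with the mean proportion, 0.20 with depth-matched weighting, 0.19 at 400 UMIs and 0.12 with no thinning, while in GnRH cells it lay between -0.40 and -0.08. The difference was -0.56 with a second draw, -0.47 with the mean proportion, -0.44 with depth-matched weighting and -0.37 with no thinning. The in-between cells did not follow a gradient, with 0.140 UMI per cell with vehicle and 0.788 with GnRH, below both classes in each library. Within the Fn1-high class of the GnRH library, Coq10b averaged 0.795 (0.620 to 1.01) at 2 Fn1 UMIs and 0.909 (0.694 to 1.17) at 3 or more, and both intervals include the Fn1-negative mean. Coq10b overlaps a pseudogene on its own strand and a further transcript on the opposite strand, so reads could be misassigned. The libraries hold no cell type known to lack Btg2, Coq10b or Fn1, so the share of cells with a UMI from free RNA had no reference, and its part in these shares was not tested.

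**Figure D5:**
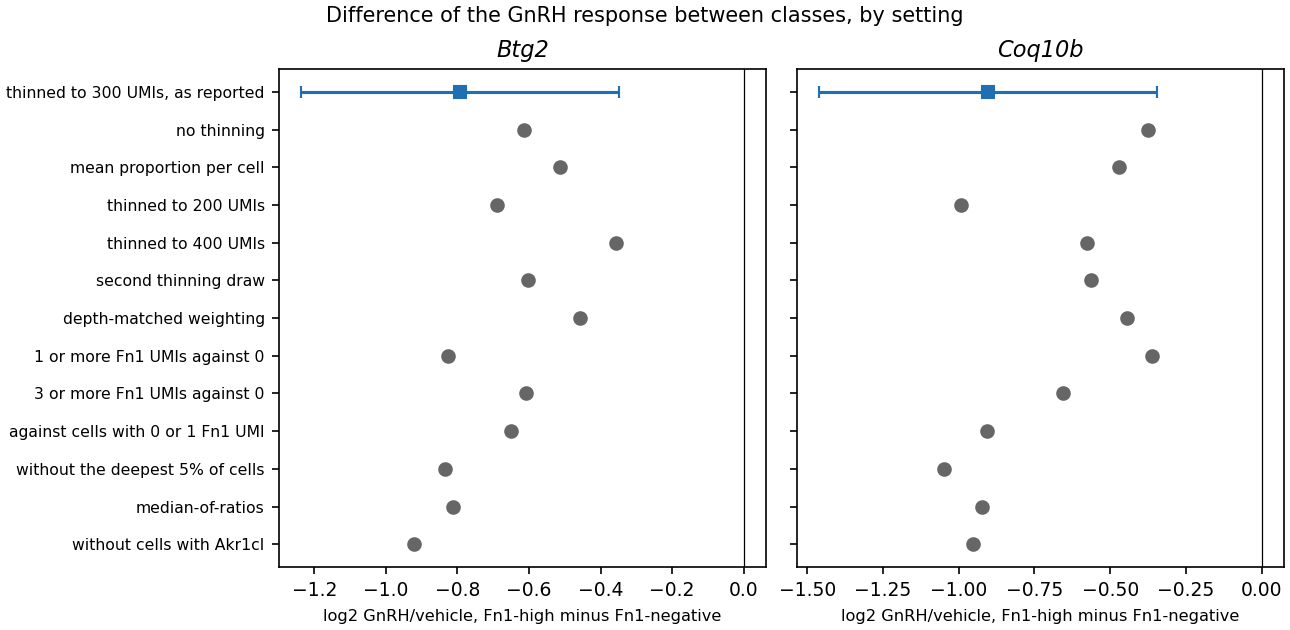
Difference of the log2 GnRH over vehicle ratio, Fn1-high minus Fn1-negative cells, for Btg2 and Coq10b under each setting (y axis); the blue square is the value at 300 UMIs with its 95% counting interval and grey points are alternatives with no interval drawn. All points lie below 0, from -0.92 to -0.36 for Btg2 and from -1.05 to -0.36 for Coq10b.

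These differences were read against all genes measured in the same way. Here a gene entered when at least 20 UMIs were expected in each library within each class if its rate did not change with treatment. Of 252 such genes, 11 were at least 1.5-fold higher with GnRH in Fn1-high cells (4.37%) and 6 in Fn1-negative cells (2.38%). The Fn1-high ratios rest on 130 vehicle and 154 GnRH cells, against 1393 and 1349 Fn1-negative cells. They carry more counting error, so the 2 shares cannot be compared directly. The response was at least 1.5-fold smaller in Fn1-high cells for 10 of the 252 (3.97%), Btg2 and Coq10b among them at 300 UMIs, though both were under that fold by the mean proportion, and at least 1.5-fold larger for 7. Over all 252 genes the median difference was 0.01 (interquartile range -0.18 to 0.16). Coq10b had the second lowest and Btg2 the fourth lowest of these differences. The range ran from -0.94 for Kdsr to 1.18 for Zranb3, neither of which belongs to the GnRH-raised list, so ratios of this size occurred in genes outside it. Another 3 of the 6 GnRH-raised genes could be compared, and all of their intervals included 0. The difference was 0.26 (-0.80 to 1.33) for Fhl2, a LIM-domain co-factor, -0.10 (-0.76 to 0.56) for Ptprn, a dense-core vesicle protein, and -0.03 (-0.57 to 0.51) for Bag2, an HSP70 co-chaperone. In the class contrast itself, 4 of the 6 passed the count filter and none was called. All 4 had lower means in Fn1-high than in Fn1-negative GnRH cells, with log2 ratios from -0.37 to -0.18 and a median of -0.23, and in vehicle cells 2 were higher and 2 lower, with a median of 0.18. Neurl3, a ubiquitin ligase, had 0 UMIs in vehicle and 7 in GnRH Fn1-high cells, under the filter. Fhl2 was under the filter of the class contrast too. Both had higher means in Fn1-high than in Fn1-negative GnRH cells. Fhl2 was at 0.266 against 0.162 UMI per cell and Neurl3 at 0.0455 against 0.0311. The list was chosen on these samples, so its direction is not independent evidence.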

How the data were processed

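Processed files of 2 single-cell libraries of LβT2 cells, 1 with vehicle and 1 with GnRH, were analysed. The deposited values were raw UMI counts per gene and cell, made by the authors from called cells with Cell Ranger 1.3; the submitters' processing notes name mm10. Gene annotation and the use of strand were not given in the sources used here. The table used held 1068 of 27998 listed genes, and 1 incomplete row was left out. Cell columns are numbered, so barcodes shared between libraries could not be counted. Totals are of these genes only: 1126320 UMIs with vehicle and 1118763 with GnRH.

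Cells were thinned without replacement to 300 UMIs of genes other than Fn1, and shallower cells were left out. UMIs were summed per class and library. Ratios carry exact conditional binomial intervals, shares exact Clopper-Pearson intervals and means exact Poisson intervals; a difference of 2 log2 ratios takes a normal-approximation interval from the 4 UMI sums. All are at 95%. Scripts used Python 3.11.15, numpy 2.4.6, pandas 2.3.3 and scipy 1.17.1, and were tested on simulated counts. Named genes were Fn1, Btg2, Coq10b, list members and neighbours within 1 Mb that passed the filter, and the 10 with the largest ratio in each direction, ranked by the smaller of the 2 libraries' absolute log2 ratios. Kdsr and Zranb3 were named after their values were seen. The classes, members and gene lists were chosen with earlier results of these data known. Doublets were not called; an alternative without the deepest 5% of cells of each library was run. Other alternatives were no thinning, 200 or 400 UMIs, a second draw, the mean proportion per cell, depth-matched weighting, other Fn1 thresholds, median-of-ratios scaling, other count filters and other folds. A run without cells that had an Akr1cl UMI was added after the data were seen.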

Additional observations from a re-analysis of the deposited data

Results flagged for a closer look

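Btg2 was flagged because its class ratio had opposite directions in the 2 libraries and neither counting interval included equal levels. The log2 ratio of Fn1-high over Fn1-negative cells was 0.5887 (0.12 to 1.03) with vehicle and -0.2037 (-0.29 to -0.12) with GnRH. Btg2 counts in GnRH cells varied 5.99 and 5.81 times as much as Poisson counts in the 2 classes. The GnRH interval is therefore too narrow, and the flag rests on it. The difference between libraries was not tested, since each treatment had 1 library. Under the alternatives the vehicle ratio lay between 0.09 and 0.59 and the GnRH ratio between -0.43 and -0.03, so the signs were kept while the sizes moved.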

How the results depend on the processing

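The counts of called genes depended on the settings. Against 3 higher genes, the number was 1 with no thinning, with the mean proportion per cell, with a second draw, with depth-matched weighting, against cells with 0 or 1 Fn1 UMI, without the deepest 5% of cells and without cells with Akr1cl, and 0 with 200 UMIs. Where 1 was called, the gene was Eya1 with the second draw, Fev without cells with Akr1cl, and Akr1cl in the other settings. It was 5 with an expected count of at least 10 and 43 with no count filter. It was 9 at a log2 threshold of 0.32 and 0 at 2-fold. Against 3 lower genes, the number was 1 with the class cut at 1 or at 3 Fn1 UMIs, 1 without cells with Akr1cl, 10 with no count filter, 15 at a log2 threshold of 0.32 and 1 at 2-fold. With the usual count filter and fold, alternatives also called Mfsd4 and Tns1 higher, and Sox13, Inhbb and Khdrbs2 lower. Of 14 alternatives at 1.5-fold, 3 kept the same thinned counts (median-of-ratios scaling and the looser count filters) and kept all 6 calls. Of the other 11, Nppc was called in 11, Tmem37 in 6 (and past 1.5-fold in both libraries in 4 more, under the count filter), Kcnb2 in 2, Sned1 in 1 and Uggt1 in 0. Akr1cl was called in 7 of the 10 that could give its ratio, and was past 1.5-fold under the count filter in 1 more. The correlation of the 2 libraries was 0.67 with the mean proportion, 0.68 with depth-matched weighting, 0.38 with an expected count of at least 10 and 0.33 without cells with Akr1cl. The share of Fn1-high cells was 2.54% with vehicle and 3.76% with GnRH when thinned with Fn1 included, and the median UMI count of the vehicle class was 607 with the class cut at 1 Fn1 UMI. The difference of the GnRH response stayed below 0 for Btg2 and Coq10b in every alternative run. Causes were not tested beyond what each setting changes. No paired analysis was possible because the treatments had a single library each; the class contrast was made within each library, and no test was run over these 2 ratios. Depth limits the class contrast of genes under 20 expected UMIs. Such genes were called with the looser filters above, and Mfsd4 also where more UMIs or cells were used, at 400 UMIs and with the class cut at 1 Fn1 UMI.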
